A study of Mus musculus with 6 samples.

Results

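The endoplasmic reticulum (ER) stress genes examined here are Hspa5, Hsp90b1, Xbp1, Atf4, Ddit3, Pdia4, Pdia6, Calr, Herpud1 and Dnajb9. They were chosen by name as factors and chaperones of the unfolded protein response, and every probe annotated to one of these 10 symbols was taken. All 10 were on the array, with 16 of its 45281 probes. Of those probes 14 passed the filter on dim signals, and each gene had at least 1 tested probe among the 8244 named genes tested. The cells came from C57BL/6 mice at 10 weeks of age and are described by the submitters as macrophages of the M2-like kind that carry CD206, F4/80 and CD11b. They were taken from 3 sources with 2 arrays each, namely the intact heart, the heart after myocardial infarction (MI heart) and the peritoneal cavity. The labels name no genetic change, no treatment other than the infarction and no sham operation, and they give neither the time after infarction nor the number of animals behind an array. Nothing in them says that the arrays of a group held separate animals, so the spread behind every p-value here may be technical rather than biological.

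The ER folds proteins that enter the secretory pathway. When unfolded proteins build up there, the sensors IRE1, PERK and ATF6 start the unfolded protein response. IRE1 splices the Xbp1 messenger RNA into the form that encodes an active transcription factor, and PERK slows translation in general while favouring that of Atf4. ATF4 and its target Ddit3, which encodes CHOP, lead the branch that links lasting stress to cell death. XBP1 and ATF6 raise chaperones such as BiP (Hspa5) and GRP94 (Hsp90b1) and parts of the machinery that removes misfolded proteins. Macrophages use the same genes in secretion, lipid handling and inflammatory signalling, and several of them also respond to amino acid shortage or oxidative stress.

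An array had 12433 to 14606 of its 45281 probes above background (detection p under 0.05), with the fewest on intact heart replicate 1. Signals below are background-corrected, quantile-normalized log2 values, on which probes of different genes are not compared with each other. Differences are log2 differences ± SE with n = 2 arrays per group, from limma's moderated test (two-sided). Their p-values were adjusted by the Benjamini-Hochberg method over all 10533 genes and unnamed probes tested, and a gene was called at an adjusted p under 0.05. The 9 macrophage markers on the array (Adgre1, Itgam, Mrc1, Csf1r, Mertk, Fcgr1, Cd14, Lyz2 and Aif1) were above background on all 6 arrays. Mrc1, the gene of CD206, lay at 9.57 and 9.51 in the intact heart and at 8.64 and 9.07 in the MI heart. In the peritoneal arrays, labelled as the same kind of cell, it lay at only 5.20 and 4.99. Itgam, the gene of CD11b, had the opposite order. It lay at 6.32 and 5.64 in the intact heart, 7.15 and 6.86 in the MI heart and 8.16 and 7.96 in the peritoneal cavity. Intact heart and peritoneal cavity differed in it by -2.08 ± 0.24 (adjusted p = 0.000332), and MI and intact heart by 1.02 ± 0.24 (adjusted p = 0.0303). Adgre1 was not called in any comparison. A lower share of cells that use a gene and less of its RNA per cell cannot be told apart in such bulk RNA.

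Macrophages of the heart carried more RNA of the stress factors Atf4 and Ddit3 and of Herpud1 than those of the peritoneal cavity, whereas most of the chaperone genes were not called. In the intact heart, Ddit3 was 4.37-fold, Atf4 2.56-fold, Herpud1 2.39-fold and Hspa5 1.86-fold higher than in the peritoneal cavity. This made 4 of 10 genes higher and 0 lower, where 12.5% of all tests were called higher and 12.8% lower (25.4% in either direction). In the MI heart, Ddit3 was 3.20-fold, Atf4 2.26-fold and Herpud1 1.48-fold higher than in the peritoneal cavity, or 3 of 10 higher and 0 lower, with 9.16% of all tests higher and 8.45% lower (17.6% in either direction). Between MI and intact heart only Herpud1 was called, 1.62-fold lower after infarction. That count of 1 of 10 lower, with 0 higher, is near the background, where 4.96% of tests were lower and 4.55% higher (9.5% in either direction). The 3 comparisons share their arrays and are not independent of each other. The median difference of the 10 genes was -0.27 for MI against intact heart, 0.30 for intact heart against peritoneal cavity and 0.07 for MI heart against peritoneal cavity. Over all tests the medians were -0.0033, -0.026 and -0.049. With arrays centred on their medians instead of quantile normalization, these medians moved to 0.12, -0.18 and -0.073. The medians of the 10 genes then became 0.05, 0.17 and 0.05, so that the one for MI against intact heart changed sign and lay below that of all tests under both scalings. Increases then made up 78.7% of all calls in MI against intact heart instead of 47.9%, and 27.8% instead of 49.4% in intact heart against peritoneal cavity.

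Other stress genes moved with these differences. The list of 12 immediate early and dissociation stress genes includes Atf3. Of these, 11 were higher in the intact heart than in the peritoneal cavity (91.7%, against 12.5% of all tests) and 0 lower. In the MI heart 10 were higher than in the peritoneal cavity (83.3%, against 9.16% of all tests) and 0 lower. Against the intact heart 8 were lower there (66.7%, against 4.96%) and 0 higher, with Junb, Egr1, Ier2 and Dusp1 not called. Summed on the linear scale, the 12 normalized signals came to 9214 and 9673 in the intact heart and 4702 and 4356 in the MI heart. In the peritoneal cavity the sum was 1665 and 1842, so that it had the order of Ddit3, Herpud1 and Hspa5. The brightest genes weigh most in such a sum. All 12 were above background on at least 1 array. The labels do not describe how cells were released from the tissues, and the part of that step in the ER stress genes was not tested.

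**Figure D1:**
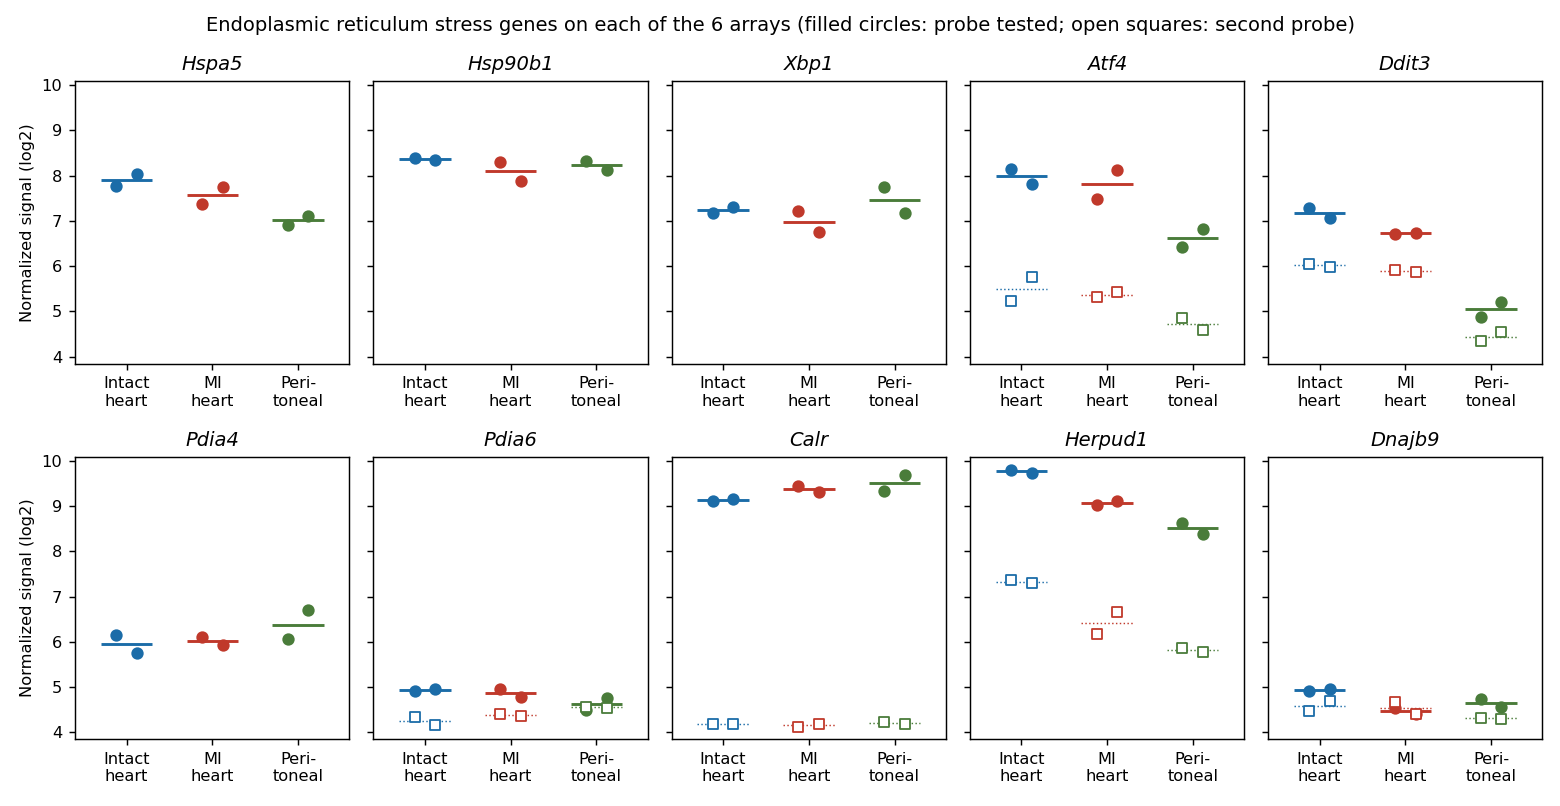
Normalized signal (log2) of the 10 genes on each of the 6 arrays, by group. Filled circles are the probe tested for the gene, open squares a second probe, and horizontal lines the mean of the 2 arrays. Ddit3 and Atf4 lie higher on all 4 heart arrays than on the peritoneal ones with both probes, and Herpud1 falls in steps from intact heart to MI heart to peritoneal cavity.

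Ddit3 encodes CHOP, the transcription factor of the ATF4 branch that promotes cell death under lasting stress. Its signal was 7.27 and 7.06 in the intact heart, 6.71 and 6.74 in the MI heart and 4.88 and 5.20 in the peritoneal cavity. The peritoneal arrays were low and the 3 groups did not overlap. The difference was 2.13 ± 0.18 between intact heart and peritoneal cavity (adjusted p = 5.47e-05), and only 2.47% of all tests differed by more. Between MI heart and peritoneal cavity it was 1.68 ± 0.18 (adjusted p = 0.000236). Both calls were kept under all 14 alternative settings. A second, dimmer probe gave 1.57 ± 0.16 (adjusted p = 0.000149) and 1.44 ± 0.16 (adjusted p = 0.000305) for the same comparisons, with the peritoneal signal above background on 1 of 2 arrays. The difference between MI and intact heart, -0.45 ± 0.18, was not called (adjusted p = 0.153, 95% confidence interval -0.84 to -0.05), and it was -0.13 ± 0.16 with the second probe (adjusted p = 0.663).

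Atf4 encodes the transcription factor whose translation PERK favours, so that its RNA need not follow its protein. Its signal was 8.15 and 7.81 in the intact heart, 7.48 and 8.13 in the MI heart and 6.43 and 6.82 in the peritoneal cavity. The heart groups overlapped, and both lay above the peritoneal arrays. Atf4 was higher in the intact heart than in the peritoneal cavity by 1.36 ± 0.25 (adjusted p = 0.00425), and in the MI heart by 1.18 ± 0.25 (adjusted p = 0.0108). The first call was lost without peritoneal replicate 1 (adjusted p = 0.0537) and with no filter on dim probes (adjusted p = 0.0610). The second was lost without that array (adjusted p = 0.110), with no filter (0.117) and on leaving out MI heart replicate 2 (0.103). With a dimmer second probe the differences were 0.77 ± 0.21 (adjusted p = 0.0249) and 0.65 ± 0.21 (adjusted p = 0.0633). MI and intact heart differed by -0.18 ± 0.25 (adjusted p = 0.715, 95% confidence interval -0.74 to 0.38).

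Herpud1 encodes a membrane protein of the ER that takes part in the degradation of misfolded proteins. Its signal was 9.80 and 9.72 in the intact heart, 9.01 and 9.12 in the MI heart and 8.62 and 8.39 in the peritoneal cavity, and the groups did not overlap. Herpud1 was the only one of the 10 genes called in all 3 comparisons. It was higher in the intact heart than in the peritoneal cavity by 1.26 ± 0.16 (adjusted p = 0.000674), a call kept under all 14 alternatives. In the MI heart it fell by 0.70 ± 0.16 on the log2 scale relative to the intact heart (adjusted p = 0.0311), and it exceeded the peritoneal level by 0.56 ± 0.16 (adjusted p = 0.0441). The call between MI and intact heart was kept under 5 of 14 alternatives and lost without any 1 of the 6 arrays (adjusted p between 0.0541 and 0.180), as well as with median-centred arrays (0.129), with no filter (0.0556) and in a fit of the compared groups alone (0.0560). The call between MI heart and peritoneal cavity was lost without MI heart replicate 1 or 2 (adjusted p = 0.135 and 0.226) and without peritoneal replicate 1 or 2 (0.0844 and 0.224). It was also lost with median-centred arrays (adjusted p = 0.109), with no filter (0.0557) and with a detection p under 0.01 required on all arrays (0.0605). A second Herpud1 probe gave -0.92 ± 0.19 between MI and intact heart (adjusted p = 0.0213). It gave 1.52 ± 0.19 between intact heart and peritoneal cavity (adjusted p = 0.000578) and 0.60 ± 0.19 between MI heart and peritoneal cavity (adjusted p = 0.0633).

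Hspa5 encodes BiP, the main chaperone of the ER lumen, which also holds the stress sensors inactive. Its signal was 7.77 and 8.04 in the intact heart, 7.38 and 7.75 in the MI heart and 6.91 and 7.11 in the peritoneal cavity. The levels ran from intact heart through MI heart to peritoneal cavity without overlap, though the heart groups met at 7.77 and 7.75, and only the ends of this order were called apart. Intact heart exceeded peritoneal cavity by 0.90 ± 0.19 (adjusted p = 0.00922; adjusted p = 0.0806 without peritoneal replicate 1). The call was also lost with arrays centred on their medians, where the difference was 0.58 (adjusted p = 0.121), and with no filter (adjusted p = 0.0522). MI heart and peritoneal cavity differed by 0.56 ± 0.19 (adjusted p = 0.0823), and MI and intact heart by -0.34 ± 0.19 (adjusted p = 0.314).

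The other chaperones were not called in any comparison. Hsp90b1, which encodes GRP94, the ER form of the HSP90 family, was at 8.38 and 8.35 in the intact heart, 8.30 and 7.88 in the MI heart and 8.33 and 8.13 in the peritoneal cavity. Its groups lay close together, and intact heart and peritoneal cavity differed by 0.14 ± 0.19 (adjusted p = 0.630, 95% confidence interval -0.28 to 0.56). MI and intact heart differed by -0.27 ± 0.19 (adjusted p = 0.406). Calr, the calcium-binding lectin chaperone calreticulin, was at 9.10 and 9.16 in the intact heart, 9.45 and 9.31 in the MI heart and 9.32 and 9.67 in the peritoneal cavity. The intact heart arrays were lowest, and the difference from the peritoneal cavity of -0.36 ± 0.17 was not called (adjusted p = 0.164), nor was that of 0.24 ± 0.17 between MI and intact heart (adjusted p = 0.433). A second Calr probe was not above background on any array.

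Pdia4 and Pdia6 encode disulfide isomerases, which form and rearrange the disulfide bonds of client proteins. Pdia4 was at 6.16 and 5.75 in the intact heart, 6.10 and 5.92 in the MI heart and 6.05 and 6.69 in the peritoneal cavity, with overlap of all groups and differences between -0.42 and 0.05, none called. Pdia6 was dim, between 4.49 and 4.96 on all arrays, and was not called either (adjusted p between 0.205 and 0.866). Its 2 probes disagreed in sign between intact heart and peritoneal cavity. Of the 2, the tested probe is annotated to a cDNA sequence and the other to a RefSeq transcript. The tested one gave 0.32 ± 0.17, while the other, above background only on the peritoneal arrays, had an intact heart signal at least 1.04-fold below the peritoneal one (adjusted p = 0.180). Dnajb9, which encodes ERdj4, a co-chaperone of BiP, was as dim, at 4.92 and 4.96 in the intact heart, 4.54 and 4.40 in the MI heart and 4.74 and 4.57 in the peritoneal cavity. It was above background on only 1 of the 2 MI heart arrays. The MI heart arrays were lowest, by -0.47 ± 0.16 relative to the intact heart, and this was not called (adjusted p = 0.105). A second Dnajb9 probe, which did not pass the filter, did not have the MI heart lowest, with means of 4.58 for intact heart, 4.54 for MI heart and 4.31 for peritoneal cavity. For these dim genes the lowest probe above background on an array lay between 4.42 and 4.52, which leaves little room to measure a decrease.

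Xbp1 encodes the transcription factor that IRE1 activates by splicing. The table holds 1 probe for it and no separate value for the spliced form. Xbp1 was at 7.18 and 7.30 in the intact heart, 7.21 and 6.75 in the MI heart and 7.74 and 7.17 in the peritoneal cavity. The groups overlapped. The peritoneal mean was the highest, whereas it was the lowest for Atf4 and Ddit3, but no difference of Xbp1 was called. It was -0.21 ± 0.23 between intact heart and peritoneal cavity (adjusted p = 0.545), -0.48 ± 0.23 between MI heart and peritoneal cavity (adjusted p = 0.213) and -0.27 ± 0.23 between MI and intact heart (adjusted p = 0.533).

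**Figure D2:**
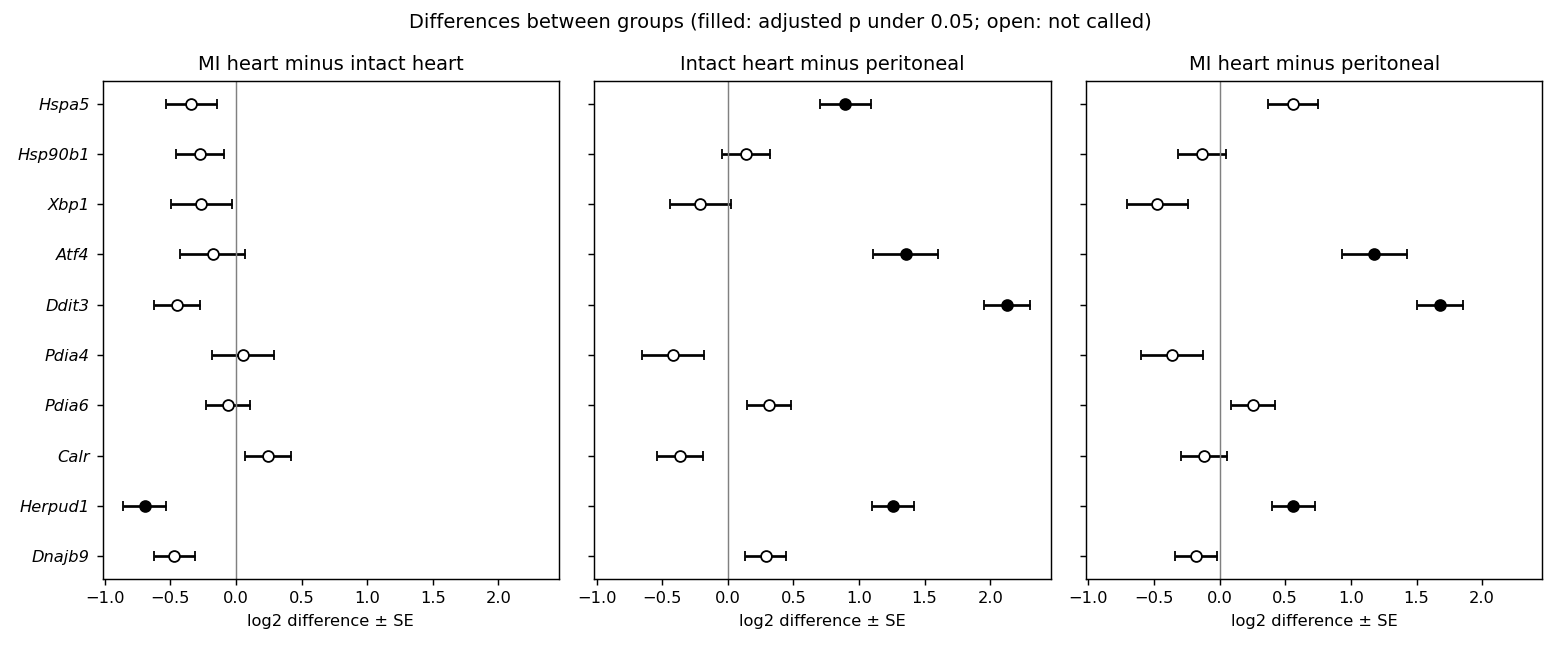
Log2 differences between groups for the tested probe of each of the 10 genes, 1 panel per comparison; bars are standard errors and filled points have an adjusted p under 0.05. Ddit3, Atf4, Herpud1 and Hspa5 are called in the intact heart against the peritoneal cavity, while the other chaperones, the isomerases and Xbp1 are not.

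The promoters of these genes are shown because some genes of the pathway were called and others were not, and the ER stress element (ERSE) is the sequence through which ATF6 and XBP1 act on chaperone genes. RefSeq promoter sequences of build GRCm38.p6 were found for all 10 genes, and the 250 bases before each gene start were searched on both strands. ERSE was searched as CCAAT and CCACG with any 9 bases between them, and the related ERSE-II as ATTGG and CCACG with any 1 base between them. In the sequences below, read 5′ to 3′ on the strand of the gene, capitals mark the match. The windows of Hspa5 (chr2:34771840-34772089, forward strand) and Herpud1 (chr8:94386179-94386428, forward strand) are given whole. For Hsp90b1 (chr10:86705513-86705676, reverse strand), Calr (chr8:84847055-84847113, reverse strand) and Pdia6 (chr12:17266471-17266529, forward strand) the stretch around the matches is given.
Hspa5: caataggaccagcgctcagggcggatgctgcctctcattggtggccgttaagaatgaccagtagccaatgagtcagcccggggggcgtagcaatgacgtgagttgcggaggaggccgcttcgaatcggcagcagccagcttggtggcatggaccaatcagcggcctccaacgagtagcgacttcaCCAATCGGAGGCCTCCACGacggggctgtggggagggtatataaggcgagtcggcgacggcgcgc
Herpud1: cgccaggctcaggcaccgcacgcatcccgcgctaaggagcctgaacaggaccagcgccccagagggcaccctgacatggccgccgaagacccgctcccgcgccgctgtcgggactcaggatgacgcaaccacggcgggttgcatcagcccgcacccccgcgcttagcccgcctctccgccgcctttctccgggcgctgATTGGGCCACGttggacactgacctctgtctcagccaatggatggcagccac
Hsp90b1: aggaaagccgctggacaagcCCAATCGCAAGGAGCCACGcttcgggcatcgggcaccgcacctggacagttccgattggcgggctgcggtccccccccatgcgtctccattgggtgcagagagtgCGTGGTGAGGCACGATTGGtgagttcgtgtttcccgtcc
Calr: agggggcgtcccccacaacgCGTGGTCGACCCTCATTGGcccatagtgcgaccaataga
Pdia6: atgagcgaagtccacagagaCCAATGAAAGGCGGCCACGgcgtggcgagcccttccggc

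ERSE stood in 4 of the 10 windows, 1 each for Hspa5, Pdia6 and Calr and a pair for Hsp90b1, and ERSE-II stood in that of Herpud1. In Calr and in the second Hsp90b1 match it reads on the opposite strand. Of all 32851 promoter windows of the same length, 0.113% held ERSE and 0.0304% ERSE-II. Because the 10 genes were chosen by name from the pathway that acts through these elements, this comparison is no test of enrichment. Counted from the gene start, with -1 as the base just before it, the match lay at positions -65 to -47 in Hspa5 and -52 to -42 in Herpud1. It lay at -98 to -80 in Pdia6, at -162 to -144 in Calr, and at -212 to -194 and -107 to -89 in Hsp90b1. Hspa5 and Herpud1 were called higher in the intact heart than in the peritoneal cavity. So were Atf4 and Ddit3, whose windows held no exact match of either element. Only exact letters were searched, so near matches were not counted in any window. The Ddit3 window holds such a near match on the opposite strand, with CCAAT, 9 bases and then GCACG in place of CCACG. Hsp90b1, Calr and Pdia6 held ERSE and were not called. The related element TGACGTGG (UPRE) was in none of the 10 windows and in 0.563% of all. TGATGNAAN, a form of the element that C/EBP and ATF factors share, was in that of Herpud1 alone and in 3.44% of all. The short NF-Y box CCAAT, which lies within both ERSE forms on one strand or the other, was in 9 of the 10 windows and in 33.8% of all. These matches are a description of letters, not evidence of binding in these cells.

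**Figure D3:**
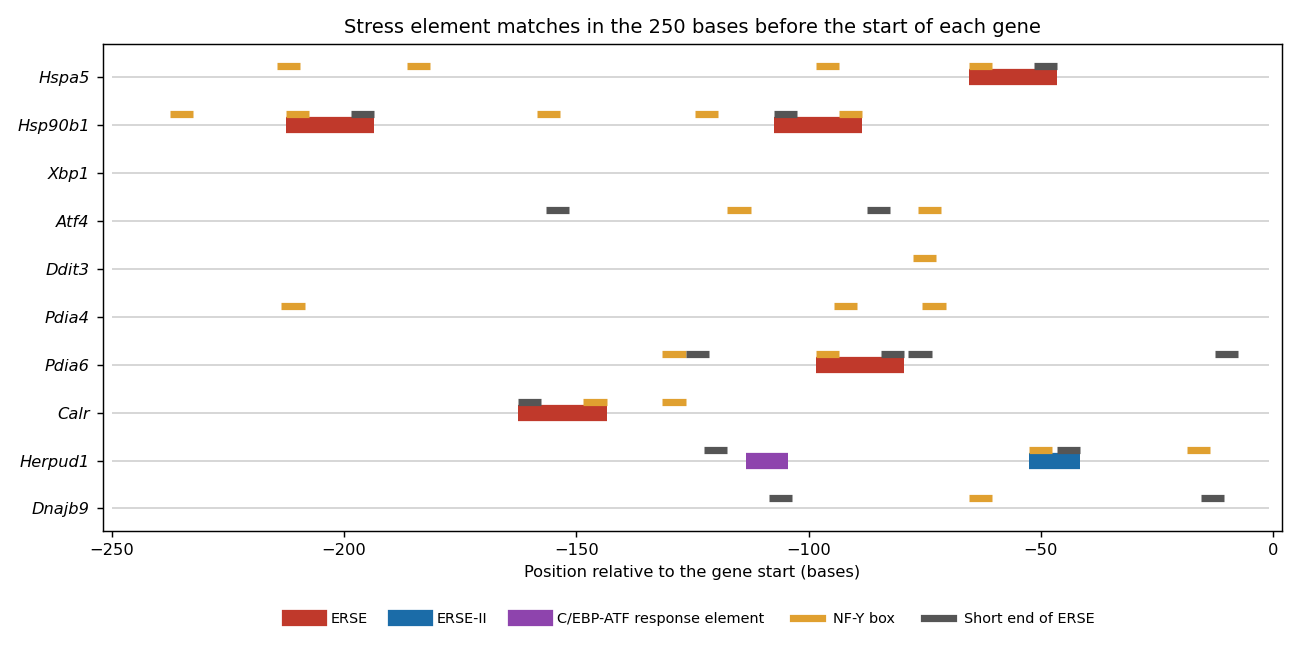
Matches in the 250 bases before the start of each of the 10 genes (the start is at the right end). Thick marks are whole elements, and thin marks above the line are NF-Y boxes and the short end of ERSE, which also occur inside the whole elements. Hspa5, Hsp90b1, Pdia6 and Calr hold ERSE, Herpud1 holds ERSE-II, and the Xbp1 window holds no match.

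A wider list of 90 further genes of the pathway was sorted by role. When intact heart was set against peritoneal cavity, its lower genes lay mainly among folding and translocation genes. Its few higher genes were ATF4 targets and cell death genes, most of whose tested ATF4 targets were not called. Of the 90 genes 86 were on the array and 66 passed the filter. In intact heart against peritoneal cavity 5 of the 66 were higher (7.58%, against 12.5% of all tests) and 18 lower (27.3%, against 12.8%). Among 16 tested targets of PERK and ATF4, 3 were higher (18.8%, against 12.5% of all tests), 1 was lower (6.25%) and 12 were not called. The lower one was Nupr1 (-0.92 ± 0.18, adjusted p = 0.00549). Trib3, Asns, Chac1 and Slc3a2 were on the array but did not pass the filter. Atf3, a transcription factor of the same branch and of the early stress response, was not above background in the peritoneal cavity (means 7.14 and 4.19) and rose at least 6.53-fold above it in intact hearts (adjusted p = 4.81e-06). Ppp1r15a, which encodes GADD34, the phosphatase subunit that ends the PERK signal, was higher by 2.76 ± 0.18 (adjusted p = 1.35e-05). Aars, an alanyl-tRNA synthetase gene, was higher by 1.06 ± 0.21 (adjusted p = 0.00606; adjusted p = 0.0576 without peritoneal replicate 2). Of 4 tested genes tied to stress-linked cell death, 2 were higher (50%, against 12.5% of all tests) and 0 lower. They were Bcl2l11, the pro-apoptotic BIM (1.21 ± 0.19, adjusted p = 0.00187), and Pmaip1, the pro-apoptotic NOXA (1.05 ± 0.20, adjusted p = 0.00498; adjusted p = 0.0538 without peritoneal replicate 2), which was above background on 1 of the 2 peritoneal arrays.

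Most of the genes lower in the intact heart than in the peritoneal cavity belonged to folding and translocation. Of 15 chaperones, co-chaperones and foldases, 9 were lower (60%, against 12.8% of all tests) and 0 higher, with a median of -0.87 against -0.026 over all tests. Sdf2l1, a component of ER chaperone complexes, fell by 1.37 ± 0.23 on the log2 scale (adjusted p = 0.00307). Dnajc10, the reductase ERdj5, differed by -1.33 ± 0.16 (adjusted p = 0.000418), and Sil1, the nucleotide exchange factor of BiP, by -1.18 ± 0.19 (adjusted p = 0.00238). Of 14 genes of the translocon, the signal peptidase and ER-Golgi transport, 5 were lower (35.7%, against 12.8%) and 0 higher (median -0.50). Ssr4, a subunit of the translocon-associated complex, differed by -1.52 ± 0.27 (adjusted p = 0.00413; adjusted p = 0.0537 without peritoneal replicate 1). Lman1, a cargo receptor for glycoproteins, differed by -1.30 ± 0.20 (adjusted p = 0.00168), and Spcs1, a signal peptidase subunit, by -0.78 ± 0.15 (adjusted p = 0.00646). Of 13 genes of ER-associated degradation, 1 was lower, the lectin gene Erlec1 (-0.84 ± 0.16, adjusted p = 0.00481), and 0 were higher. That share of 7.69% lower is below the 12.8% of all tests. Of 4 tested sensor and protease genes, 2 were lower (50%, against 12.8% of all tests). Ern1, which encodes IRE1, differed by -1.08 ± 0.20 (adjusted p = 0.00465; adjusted p = 0.0508 without peritoneal replicate 2). Mbtps2, a protease that releases ATF6, differed by -0.72 ± 0.21 (adjusted p = 0.0346; adjusted p up to 0.202 without intact heart replicate 2, peritoneal replicate 1 or peritoneal replicate 2), and was above background on 1 of the 2 intact heart arrays. With no filter the calls of Aars, Ssr4 and Mbtps2 were lost. That of Mbtps2 was also lost without background correction and with the series matrix values.

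After infarction the wider list held few calls. Of these 7, 5 were among the targets of PERK and ATF4, with 4 higher and 1 lower. Atf4 and Ddit3 themselves were not called in this comparison. In MI against intact heart, 6 of the 66 genes were higher (9.09%, against 4.55% of all tests) and 1 lower (1.52%, against 4.96%). Leaving out either MI heart array reduced these 7 calls to 1, and leaving out intact heart replicate 1 reduced them to 2. Without either peritoneal array there were 4. Among the targets of PERK and ATF4, 4 of 16 were higher (25%, against 4.55% of all tests) and 1 lower (6.25%, against 4.96%). Slc7a11, the cystine transporter, was 5.69-fold higher (means 7.11 and 4.60, difference 2.51 ± 0.16, adjusted p = 8.60e-05) and kept its call under all 13 alternatives in which it was tested. Ddit4, an inhibitor of mTOR signalling that also responds to hypoxia, differed by 1.65 ± 0.37 (adjusted p = 0.0268). It lost its call without any 1 of the 4 heart arrays (adjusted p up to 0.200) and with no filter. Atf3 was lower by 1.00 ± 0.16 in size, from 7.14 to 6.13 (adjusted p = 0.00621; adjusted p up to 0.0691 without either MI heart array). Dnajc10 differed by 0.67 ± 0.16 (adjusted p = 0.0320) and Erlec1 by 0.70 ± 0.16 (adjusted p = 0.0274). Dnajc10 lost its call without any 1 of the 6 arrays (adjusted p up to 0.199), and Erlec1 without any 1 other than intact heart replicate 2 (adjusted p up to 0.177), and both also lost it in a fit of the compared groups alone. Atf3 was not called with median-centred arrays, which gave 8 higher and 0 lower genes in the list. None of the tested genes of the translocon and transport list was called, and their median was 0.33.

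In MI heart against peritoneal cavity, 9 of the 66 genes were higher and 9 lower (13.6% each, against 9.16% and 8.45% of all tests). Without 1 of the MI heart or peritoneal arrays these 18 calls fell to 7 or 8. Of the PERK and ATF4 targets, 6 of 16 were higher (37.5%, against 9.16% of all tests) and 0 lower. Slc7a11, whose tested probe was not above background in the peritoneal cavity (means 7.11 and 4.24), was at least 6.39-fold higher (adjusted p = 8.26e-06). Also higher were Ddit4 (2.36 ± 0.37, adjusted p = 0.00239) and Ppp1r15a (2.10 ± 0.18, adjusted p = 8.14e-05). Of the chaperones and foldases, 6 of 15 were lower (40%, against 8.45% of all tests) and 1 higher (6.67%, against 9.16%). Pdia5, a further disulfide isomerase, was not above background in the MI heart (means 4.19 and 5.38) and at least 1.93-fold lower there (adjusted p = 0.000988). Sil1 differed by -1.01 ± 0.19 (adjusted p = 0.00682; adjusted p up to 0.0745 without MI heart replicate 1 or either peritoneal array). Ero1b, an oxidase that recharges disulfide isomerases, was higher by 0.94 ± 0.27 (adjusted p = 0.0403; adjusted p up to 0.270 without any 1 MI heart or peritoneal array). Its call was also lost when arrays were median-centred, when background was left uncorrected, when the deposited series matrix was used and when no filter was set. Ssr4 (-1.17 ± 0.27, adjusted p = 0.0188), Lman1 (-0.84 ± 0.20, adjusted p = 0.0191) and Ern1 (-0.67 ± 0.20, adjusted p = 0.0497) were lower. Each of them lost its call without any 1 MI heart or peritoneal array, with adjusted p up to 0.155, 0.147 and 0.248. With no filter Ddit4, Sil1, Ssr4, Lman1 and Ern1 were not called, and Ern1 was not called from the series matrix values either. Both cell death genes were higher again, Bcl2l11 by 1.53 ± 0.19 (adjusted p = 0.000614) and Pmaip1 by 1.11 ± 0.20 (adjusted p = 0.00490; adjusted p up to 0.0572 without MI heart replicate 2 or peritoneal replicate 2).

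**Figure D4:**
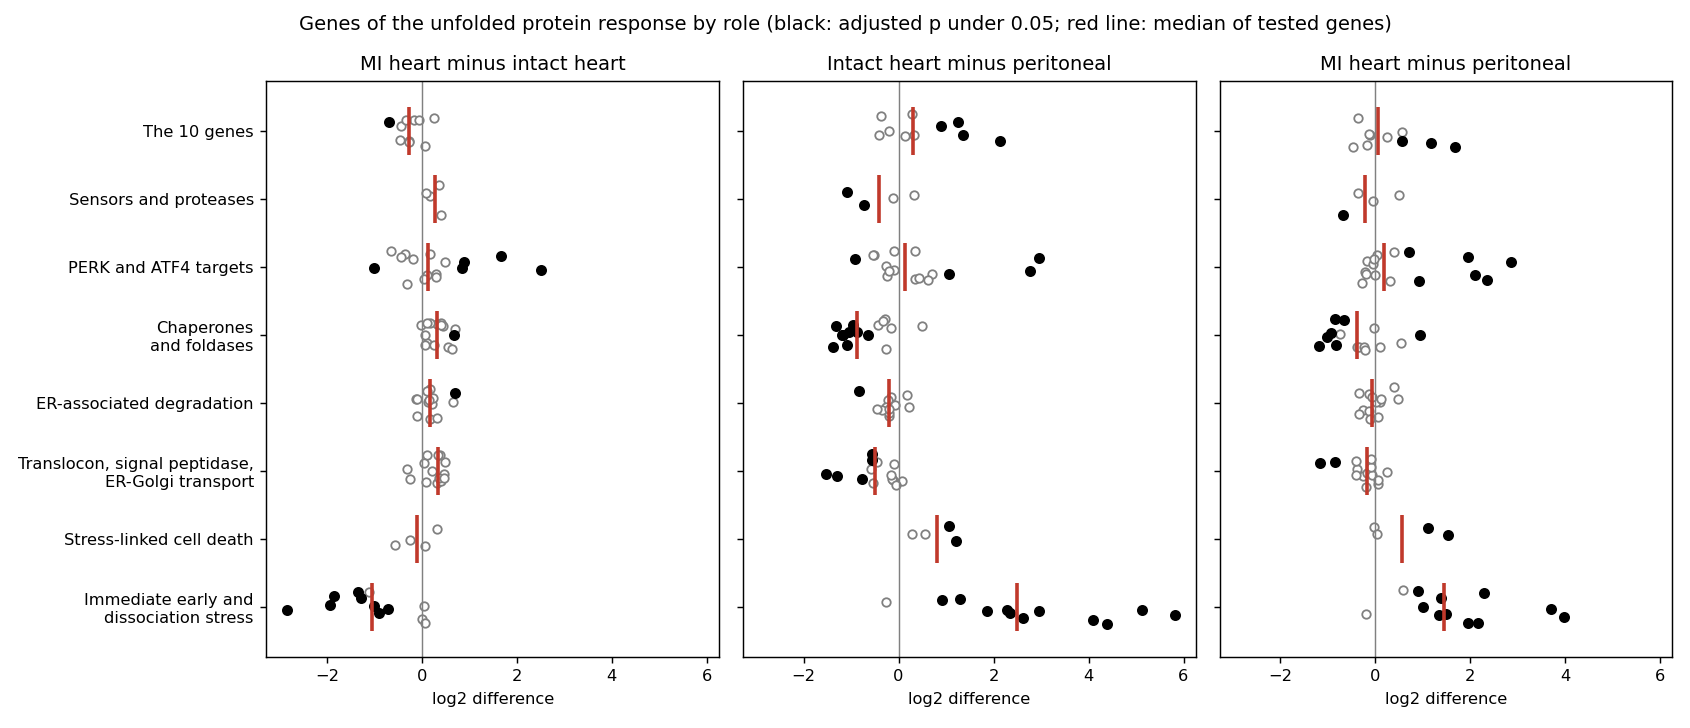
Log2 differences of all tested genes of each role (points, black where the adjusted p is under 0.05) with their median (red line), 1 panel per comparison; the last row holds immediate early and dissociation stress genes. In intact heart against peritoneal cavity, the called chaperones and foldases all lie below 0, whereas the called genes among the 10 lie above it.

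Plasma cells carry much ER machinery. Of the 8 plasma and B cell markers on the array, Sdc1, Mzb1, Tnfrsf17 and Ms4a1 were not above background on any array. The summed signal of the 8 was 222 and 240 in the intact heart, 212 and 234 in the MI heart and 166 and 157 in the peritoneal cavity. Prdm1, a transcription factor gene that macrophages also use, was the one called. It was not above background in the peritoneal cavity and at least 3.72-fold higher in the intact heart (means 6.33 and 4.23, adjusted p = 0.000228). The 8 cardiomyocyte markers on the array summed to 284 and 330 in the intact heart, 199 and 206 in the MI heart and 181 and 185 in the peritoneal cavity, and Tnni3 and Actc1 were not above background on any array. In intact heart against peritoneal cavity 3 of 6 tested were higher (50%, against 12.5% of all tests) and 1 lower (16.7%, against 12.8%). In MI against intact heart 2 were lower (33.3%, against 4.96%) and 0 higher. Some markers of neutrophils and fibroblasts were higher in the MI heart, and others were not. The 7 neutrophil markers summed to 148 and 139 in the intact heart, 272 and 161 in the MI heart and 139 and 135 in the peritoneal cavity, and Retnlg, Ngp, Camp and Cxcr2 were not above background on any array. S100a9, 1 of 2 tested, was at 7.25 and 5.42 in the MI heart and not above background elsewhere. It was at least 3.58-fold higher there than in the intact heart (adjusted p = 0.0355) and at least 3.74-fold higher than in the peritoneal cavity (adjusted p = 0.0158). Ltf, the other one tested, differed by -0.37 ± 0.20 between MI and intact heart (adjusted p = 0.288) and was not called in any comparison. The 7 fibroblast markers summed to 150 and 142 in the intact heart, 177 and 172 in the MI heart and 135 and 140 in the peritoneal cavity, and Col1a2 and Postn were not above background on any array. Of 4 tested, Col1a1 was at least 1.73-fold higher in the MI than in the intact heart (adjusted p = 0.00503). Against the peritoneal cavity Col1a1 was at least 1.81-fold higher in the MI heart (adjusted p = 0.00129) and Dcn at least 1.36-fold (adjusted p = 0.0303). Dcn was not called in MI against intact heart, and Col3a1 and Pdgfra were called in neither comparison. The 1 tested endothelial marker and the 1 tested mesothelial marker were not called, and no marker of T and NK cells or of mast cells passed the filter. The part of such RNA in the differences of the 10 genes was not tested.

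The tested genes with the most similar profile over the 6 arrays were found by Pearson's r of normalized signals, given as a description because 6 arrays in 3 groups make a high r common. For Ddit3 they were Folr2 (r = 0.999), Rdh7 (0.999), Ppp1r15a (0.998), Pea15a (0.997) and Gadd45g (0.996), and Ppp1r15a alone among them is in the lists used here. For Hspa5 they were Tgfbr1 (r = 0.995), Etv3 (0.993), Pla2g4b (0.991), Kdm5c (0.985) and Ctns (0.985), none of which is in those lists.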

How the data were processed

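RNA of 6 samples was hybridised as biotinylated cRNA to Illumina mouse bead arrays, per the labels' protocols. The deposited table gives a signal intensity for each probe and array on a linear scale, neither normalized nor background-subtracted, with a detection p-value as deposited. The deposited series matrix holds linear intensity values that share 1 distribution. In its MI heart and peritoneal columns the replicate numbers are exchanged relative to the signal table, whose numbers are used here; which numbering is right is undecided. Scanner software and genome build were not given in the sources used here. In all, 0 columns with values per sample were left unused.

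Signals were background-corrected (with negative-control levels that neqc infers from detection p-values, offset 16), quantile-normalized and log2-transformed with neqc of limma 3.58.1 in R 4.3.3. A probe was kept where its detection p was under 0.05 on the 2 arrays of any group (14817 probes). For each gene symbol of the platform table the probe with the highest mean was tested, with 2289 unnamed probes on their own. A single model of group means used all 6 arrays (lmFit, eBayes; 3 residual and 5.78 prior degrees of freedom). Where the tested probe was not above background on any array of the dimmer group, its fold is a lower bound. It sets the brighter mean against, per array, the higher of the lowest signal above background and the probe's own signal. Second probes were tested in a fit of every kept probe. The fit was tested on simulated data with known changes. The 10 genes, the wider lists and the markers were chosen with earlier results of these data known. From each wider list the 3 called genes with the largest differences are named, and Nupr1 is named in addition. The number of arrays limits the precision. The alternatives were median centring, no background correction, the series matrix values, 2 other filters, every probe on its own, a fit of the compared groups only, a replicate block and leaving out each array.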

Additional observations from a re-analysis of the deposited data

How the results depend on the processing

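No alternative turned the direction of a called difference of the 10 genes. The genes among the 10 called were 1, 4 and 3 in MI against intact heart, intact heart against peritoneal cavity and MI heart against peritoneal cavity. With no filter they were 0, 2 and 1. In the first comparison they were also 0 with arrays centred on their medians and 0 with only the compared groups in the fit. With 1 array left out they ranged from 0 to 0, from 2 to 4 and from 1 to 3. A group left with 1 array adds nothing to the estimate of the spread and is assumed to vary like the others. Leaving out either array of the group not compared therefore gives the same result as a fit of the compared groups only. Losses under these settings, as for Herpud1, Dnajc10 and Erlec1 in MI against intact heart, are not separate checks. The wider list had 7, 23 and 18 calls. These became 3 and 15 in the first and second comparison with a detection p under 0.01 required on all arrays, which tests fewer genes. They became 4 in the first with only the compared groups and 8 in the third with no filter. With 1 array left out they ranged from 1 to 8, from 16 to 25 and from 7 to 19. Over all tests 1001, 2673 and 1855 were called. The stricter filter gave 565, 1523 and 1054, and no filter gave 424 in the first and 1184 in the third. In the first comparison the count was 659 without background correction, 653 from the deposited series matrix and 590 from the compared groups only. With 1 array left out the counts ranged from 249 to 970, from 1426 to 2388 and from 917 to 2174. Why the counts moved was not tested where fewer genes or arrays do not show it. Same-numbered arrays were tied weakly (correlations of deviations 0.083, 0.181 and 0.168) and share only a number. The replicate numbers of the MI heart and peritoneal arrays differ between the deposited tables. The correlations with the intact heart, the counts with the block and the numbers of the arrays named as left out depend on which is right. With the replicate block 1, 4 and 4 of the 10 genes, 9, 25 and 18 of the wider list and 1315, 3037 and 2150 of all tests were called, Hspa5 being added in the third comparison (0.56, adjusted p = 0.0353). Signals near background limit Pdia6 and Dnajb9, which the stricter filter removed.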
